A study of Mus musculus with 6 samples.

Results

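The 34 genes described here carry glucose into the cell, break it down to pyruvate, interconvert pyruvate and lactate, carry lactate across the membrane or pass pyruvate to the mitochondrion. They were taken by gene symbol from a list of glycolysis and lactate genes that pairs general (somatic) isozymes with their germ cell counterparts. All 34 symbols were listed in all 6 count files, out of 21786 symbols common to the 6 files. Reads per gene were counted in polyadenylated RNA of whole testes from mice on a C57BL/6 background. The Stra8-deficient group (genotype Stra8 -/-) consisted of 3 males aged 1 year whose testes were grossly enlarged, and the wild-type group (Stra8 +/+) of 3 males aged 2 to 4 months with normal testes. Stra8 is required for the meiotic entry of germ cells, and by the labels most cells of the enlarged testis resembled type A spermatogonia. Age and testis enlargement went with genotype in every library, so the effects of genotype, age and enlargement cannot be told apart. Which exons the Stra8 allele lacks is not stated in the labels. Stra8 itself was read at 21.2, 23.7 and 18.1 CPM (counts per 1000000 reads) in Stra8-deficient and 18.7, 18.6 and 17.1 CPM in wild-type libraries, so its level does not check the labels, and the group names stand for libraries so labelled.

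Glycolysis splits a glucose molecule into pyruvate in a fixed series of enzyme steps, and lactate dehydrogenase then converts pyruvate to lactate and back. In the seminiferous tubule, Sertoli cells are known for exporting lactate, which meiotic and postmeiotic germ cells take up as fuel. Sperm also run glycolysis along the tail, and for several steps the genome holds a separate gene that is transcribed in meiotic or haploid germ cells. Some of these genes are intronless copies (retrogenes) of a parent gene. Pgk1 and Pdha1 lie on the X chromosome, which is silenced during male meiosis, and their retrogene copies Pgk2 and Pdha2 lie on autosomes.

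The libraries held 6733128 to 12425689 reads in genes. A gene's CPM is computed from its reads over the library total multiplied by a scaling factor (trimmed mean of M values, TMM), and differences are log2 values of Stra8-deficient over wild type from edgeR's quasi-likelihood test with an approximate standard error (SE). A gene was called when its p, adjusted by Benjamini-Hochberg over the 15018 genes tested, was under 0.05. By the labels each library came from its own male. With each group fitted alone, the spread was wider in Stra8-deficient (biological coefficient of variation 38.0%) than in wild-type libraries (7.36%). The test pooled the spread of both groups into a shared estimate, so the p-values do not take this difference into account. Summed levels of 8 spermatid markers were 6.29 to 12.4 CPM in Stra8-deficient and 21907 to 25305 CPM in wild-type libraries, with Catsper1 at 0 reads in the former. For 8 pachytene spermatocyte markers the sums were 125.2 to 154.2 against 5891 to 6477 CPM, and for 8 markers of undifferentiated spermatogonia 1130 to 1890 against 42.9 to 50.9 CPM. Sertoli markers (7 genes) summed to 59.8 to 117.1 against 569.0 to 659.4 CPM. The Stra8-deficient libraries were unlike each other in Leydig markers (8 genes), at 339.6, 18.4 and 2799 CPM against 800.1 to 1302 CPM in wild type, and in macrophage markers (7 genes), at 292.9, 228.8 and 908.9 CPM against 92.6 to 101.5 CPM. The third Stra8-deficient library was also counted by the authors on another gene list than the other 5. In whole testes, fewer cells of a type and less RNA per cell cannot be told apart.

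The 34 genes as counted took a far smaller part of the reads in the Stra8-deficient testes. The 34 genes took 1.34%, 1.37% and 1.27% of the gene reads in the wild-type libraries and 0.196%, 0.137% and 0.177% in the Stra8-deficient libraries. These shares include Gapdh, Pgk1, Pgam1 and Eno1, whose levels are uncertain, as given below. How far that changes the share of either group was not tested. Of the 34 genes, 29 passed the filter on low counts, and 15 of these were lower in the Stra8-deficient testes, 8 higher and 6 not called. Among all genes tested, 36.7% were called lower, 39.0% higher and 75.8% in either direction. The counts were 15 and 8 as well without the third Stra8-deficient library. In 23 of the 29 genes the 3 libraries of each genotype did not overlap, against 80.2% of all genes tested. The median log2 difference of the 29 was -1.95, beside 0.11 for all genes tested. With single libraries left out, where 29 or 30 genes were tested, the median lay between -2.07 and -1.04. Without the low-count filter, with all 34 genes tested, it was -0.153. All 7 genes labelled germ cell forms (Slc2a3, Aldoart1, Aldoart2, Gapdhs, Pgk2, Ldhc and Pdha2) were lower, with a median of -8.32. The 22 tested genes of the other class were 8 higher, 8 lower and 6 not called, with a median of -0.07. This class is known to include genes that germ cells also use, among them Hk1, Pgam2 and Slc16a7. Slc2a3, labelled a germ cell form, is also known from neurons. The contrast between the classes therefore depends on how such genes were labelled. Differences of -8 or lower, a limit set after the values were seen, occurred in 6 of the 29 genes and in 4.41% of all genes tested.

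**Figure D1:**
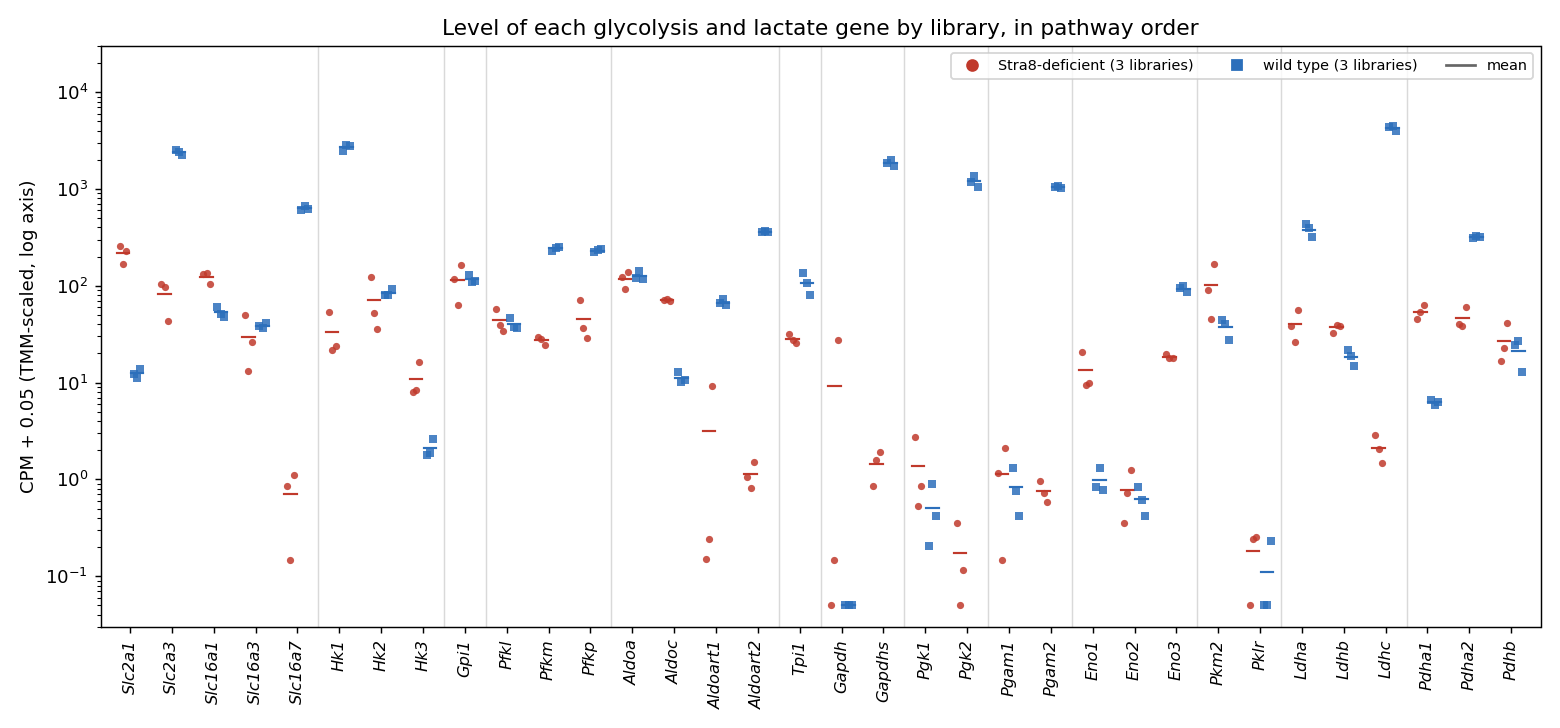
CPM of each of the 34 genes in every library (vertical log axis, 0.05 added so that zeros can be drawn), with genes in pathway order and grey lines between steps; circles are Stra8-deficient libraries, squares wild-type libraries and short bars their means. Ldhc, Gapdhs, Pgk2 and Pgam2 sit at 1013.5 CPM or higher in every wild-type library and below 3 CPM in every Stra8-deficient library, while Slc2a1 runs the other way.

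The glucose transporters changed places. Slc2a3 encodes GLUT3, a high-affinity glucose transporter of neurons and of sperm. It was read at 104.7, 97.6 and 43.6 CPM in the Stra8-deficient libraries and 2504, 2394 and 2239 CPM in the wild-type libraries. All wild-type libraries lay far above all Stra8-deficient ones, and the log2 difference was -4.86 ± 0.36 (SE; edgeR, adjusted p = 2.32e-06). Slc2a1 encodes GLUT1, the basal transporter of most proliferating cells and of endothelium. Its levels were 255.4, 169.0 and 229.4 CPM against 12.3, 11 and 13.8 CPM, with every Stra8-deficient library above every wild-type one. The rise was 17.6-fold (4.14 ± 0.23; edgeR, adjusted p = 3.76e-07). Endothelial markers (5 genes) summed to 46.4 to 68.8 CPM in Stra8-deficient and 20 to 26.8 CPM in wild-type libraries, a 2.39-fold difference in means, and their part in the rise of Slc2a1 was not tested. On a scale corrected for transcript length (RPKM, CPM per kilobase of exon), the level of Slc2a3 in wild type was 600.9 ± 33.6 and that of Slc2a1 3.79 ± 0.421 (SD, n = 3). In Stra8-deficient testes the levels were 20.7 ± 8.44 RPKM for Slc2a3 and 66.8 ± 13.6 RPKM for Slc2a1, so the order of these 2 genes was opposite in the 2 groups.

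The monocarboxylate transporters, which move lactate and pyruvate with a proton, went separate ways. Slc16a7 (MCT2) has a high affinity for its substrates and is known from the sperm tail. It had 8, 1 and 16 reads in Stra8-deficient and 3915, 4758 and 3370 reads in the wild-type libraries. The groups were far apart, with a log2 difference of -9.81 ± 0.48 (edgeR, adjusted p = 1.9e-07), which was -10.45 without the third Stra8-deficient library. The ratio of rates, wild type over Stra8-deficient, was 900.1 (95% exact counting interval 609.5 to 1392, counting error only). Slc16a1 (MCT1), the widely expressed member, rose from 60.3, 51.0 and 47.9 CPM in wild type to 131.6, 136.0 and 104.4 CPM, a log2 difference of 1.22 ± 0.18 with no overlap (edgeR, adjusted p = 2.33e-04). Slc16a3 (MCT4), which exports lactate from strongly glycolytic cells, stood at 49.4, 13.0 and 25.9 CPM against 38.7, 36.3 and 41.3 CPM. Its groups overlapped and it was not called (-0.40 ± 0.41; edgeR, adjusted p = 0.389). Without the first Stra8-deficient library it was called lower at -1.03, and with library size alone its sign turned (0.23).

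Hexokinase, the enzyme that traps glucose in the cell as glucose 6-phosphate, was read almost wholly from Hk1 in normal testis. Hk1, which has a known germ cell transcript form with its own first exon, was at 2477, 2830 and 2776 CPM in wild-type libraries and 53.9, 21.5 and 23.6 CPM in Stra8-deficient libraries. No library came near the other group, and the log2 difference was -6.35 ± 0.42 (edgeR, adjusted p = 1.15e-06). The gene counts sum all forms of Hk1, so the germ cell and the general form are not separated here. Hk2, the insulin-responsive and growth-associated isozyme, was at 123.0, 52.5 and 36 CPM against 80.4, 80.3 and 92.3 CPM. It was not called (-0.26 ± 0.39; edgeR, adjusted p = 0.564). The first Stra8-deficient library was above the wild-type range and the other 2 below it. Without that first library Hk2 was called lower at -0.96. It was above 0 without the third Stra8-deficient library (0.05), under upper-quartile scaling (0.02) and with library size alone (0.37). Hk3, the hexokinase of myeloid cells, rose from 1.72, 1.84 and 2.57 CPM to 7.93, 8.38 and 16.3 CPM (2.42 ± 0.41; edgeR, adjusted p = 5.48e-04), with no overlap. The summed macrophage markers were 4.91-fold higher in Stra8-deficient means and highest in the third library, as Hk3 was, and their part in the rise of Hk3 was not tested. By share of hexokinase reads, Hk1 held 96.9 ± 0.255% in wild type and 28.8 ± 2.53% in Stra8-deficient testes (SD, n = 3), and Hk2 held 3.04 ± 0.245% and 59.2 ± 10.3%.

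At the next 2 steps, Gpi1 and Pfkl were not called, while Pfkm and Pfkp were lower in the Stra8-deficient testes. Gpi1, the sole isomerase gene, was at 117.2, 62.5 and 162.3 CPM against 130.1, 109.7 and 112.6 CPM, with the Stra8-deficient libraries on both sides of wild type (-0.04 ± 0.30; edgeR, adjusted p = 0.906). Its value was above 0 with library size alone (0.57), under upper-quartile scaling (0.23), and without the second Stra8-deficient (0.21) or the first wild-type library (0.02). Of the phosphofructokinase genes, which encode the main control point of glycolysis, the muscle form Pfkm was lower at 29.8, 28.3 and 24.2 CPM against 227.2, 248.2 and 254.2 CPM (-3.15 ± 0.18; edgeR, adjusted p = 4.08e-07). The platelet form Pfkp was at 71.9, 36.3 and 28.7 CPM against 221.9, 231.3 and 239.7 CPM, also without overlap (-2.34 ± 0.32; edgeR, adjusted p = 1.43e-04). The liver form Pfkl, at 58.1, 39.1 and 34.2 CPM against 46.8, 37.8 and 36.9 CPM, overlapped between groups and was not called (0.11 ± 0.24; edgeR, adjusted p = 0.689). Its value was just below 0 with relative log expression (RLE) size factors and in DESeq2 and -0.17 without the first Stra8-deficient library, and with library size alone it was called higher at 0.73. Pfkl thus took 37.8 ± 1.43% of phosphofructokinase reads where Stra8 was deficient and 7.90 ± 1.35% in wild type (SD, n = 3).

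Aldolase, which splits fructose 1,6-bisphosphate into trioses, was read from its genes in different proportions in the 2 groups. Aldoart2, an intronless germ cell copy of Aldoa on chromosome 12, had 10, 8 and 22 reads in Stra8-deficient and 2275, 2578 and 1951 reads in wild-type libraries. Its ratio of rates was 317.8 (95% exact counting interval 233.2 to 445.3) and its log2 difference -8.32 ± 0.27 (edgeR, adjusted p = 2.79e-08). Aldoart1, a second intronless copy on chromosome 4, had 421, 512 and 344 wild-type reads and only 1 and 2 reads in the first and second Stra8-deficient libraries, but 136 in the third. The called difference (-4.32 ± 1.19; edgeR, adjusted p = 0.0133) was -8.70 without the third Stra8-deficient library, which was counted on another gene list. The call was lost without the first (-4.37) or the second wild-type library (-4.30) and with the replicate number as a term (-5.52), and the adjusted p ranged from 6.24e-07 to 0.105 over all alternatives. The coding sequence of Aldoart1 was 93.9% identical to that of Aldoa over 1254 aligned bases, and 160 stretches of 36 bases occurred in both. Aldoart2 had 50 such stretches in common with Aldoa and 31 with Aldoart1. Reads of Aldoa, Aldoart1 and Aldoart2 are therefore uncertain. Aldoc, the brain form, rose from 12.8, 10.0 and 10.5 CPM to 71.7, 72.7 and 68.9 CPM, a log2 difference of 2.68 ± 0.19 (edgeR, adjusted p = 2.1e-06). Its Stra8-deficient values were within 4 CPM of each other. Aldoa, the muscle and general form, was at 122.7, 91.8 and 140.1 CPM against 119.8, 140.6 and 117.2 CPM and overlapped (-0.09 ± 0.20; edgeR, adjusted p = 0.689). That value changed sign with library size alone (0.53, called), under upper-quartile scaling (0.18) and without the second Stra8-deficient library (0.02). Aldoart2 was the leading aldolase gene of wild-type testis at 63.8 ± 1.64% of the reads, and Aldoa that of Stra8-deficient testis at 60.7 ± 4.53% (SD, n = 3).

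**Figure D2:**
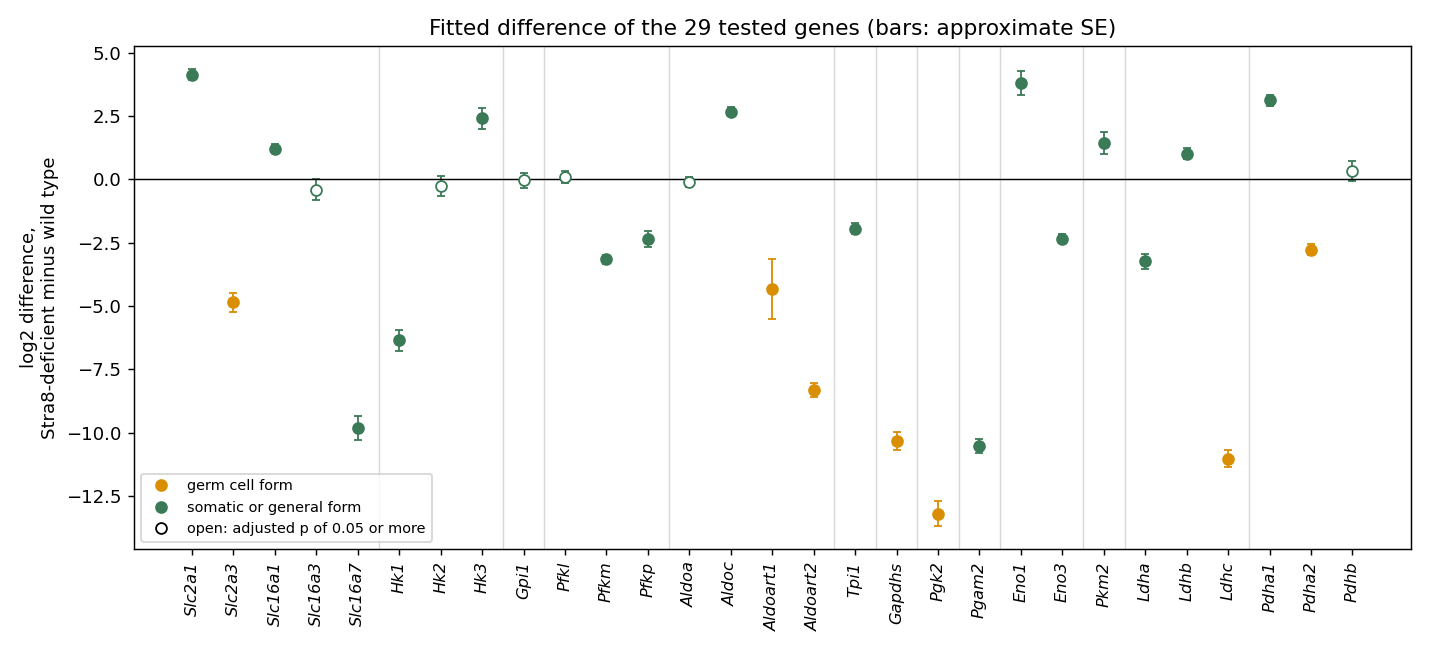
Log2 difference (Stra8-deficient minus wild type) of the 29 genes that passed the low-count filter, in pathway order, with approximate SE; orange marks germ cell forms, green the other forms, and open circles genes that were not called. All 7 genes labelled germ cell forms lie below 0, Pgk2 lowest at -13.20, and Slc2a1 lies highest at 4.14.

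In the lower part of glycolysis, Gapdhs and Pgam2 were abundant in wild type and close to unread in the Stra8-deficient libraries, and Tpi1 and Eno3 were lower as well. Gapdhs, the glyceraldehyde 3-phosphate dehydrogenase of sperm, which is bound to the fibrous sheath of the tail, had 8, 16 and 28 reads in Stra8-deficient and 11755, 14207 and 9463 reads in wild-type libraries. That is a log2 difference of -10.33 ± 0.35 (edgeR, adjusted p = 2.86e-08) and a ratio of rates of 1273 (95% exact counting interval 970.5 to 1705). Pgam2, a phosphoglycerate mutase known from muscle and sperm, had 9, 7 and 8 reads against 6658, 7655 and 5525 reads (-10.54 ± 0.28; edgeR, adjusted p = 2.71e-08). Skeletal muscle markers (8 genes, of which 3 passed the low-count filter) summed to 35 to 55.9 CPM in Stra8-deficient and 25.6 to 27.9 CPM in wild-type libraries. The part of muscle in the fall of Pgam2 was not tested. Tpi1, the triose phosphate isomerase gene, was at 31.5, 27.2 and 25.3 CPM against 134.1, 107.7 and 81.1 CPM, a fall of 1.95 ± 0.22 on the log2 scale without overlap (edgeR, adjusted p = 4.26e-05). Eno3, the muscle enolase, was at 19.5, 18.0 and 17.7 CPM against 95.4, 98.4 and 85.8 CPM (-2.34 ± 0.17; edgeR, adjusted p = 2.26e-06). Eno1, the general enolase, was read 206, 98 and 147 times in Stra8-deficient and 5, 9 and 4 times in wild-type libraries, and was called higher (3.80 ± 0.48; edgeR, adjusted p = 7.77e-05). Eno2, the neuronal form, had at most 18 reads in a library and was not tested. Eno4, an enolase gene outside the 34 that was looked up after its values were seen, stood at 20.2, 11.4 and 14.3 CPM against 104.1, 95.4 and 101.6 CPM, and was lower (-2.71 ± 0.24; edgeR, adjusted p = 6.96e-06).

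Phosphoglycerate kinase, the first step that yields ATP, had the lowest log2 difference of the 29 tested genes. Pgk2, the autosomal retrogene on chromosome 17, had 3, 0 and 1 reads in Stra8-deficient libraries and 7519, 9748 and 5746 reads in the wild-type libraries. The lowest wild-type library was at 1054 CPM. The ratio of rates, 10751, rests on 4 Stra8-deficient reads and has a wide interval (95% exact counting interval 4198 to 39460). The fitted log2 difference was -13.20 ± 0.49 (edgeR, adjusted p = 4.44e-08), and -14.49 without the first Stra8-deficient library. Pgk1, its X-linked parent, was listed with only 27, 5 and 12 reads against 1, 6 and 2 reads and did not pass the filter. The coding sequences of Pgk1 and Pgk2 were 79.3% identical over 1251 bases and shared no stretch of 36 bases. The beginnings of the 2 coding sequences (coding bases 1 to 60, GENCODE M21) are shown because they show how parent and copy differ; capitals mark the 20 positions at which they differ.
Pgk1: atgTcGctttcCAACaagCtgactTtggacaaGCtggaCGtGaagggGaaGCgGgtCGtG
Pgk2: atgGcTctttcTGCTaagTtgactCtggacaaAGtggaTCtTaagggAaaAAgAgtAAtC

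Several general forms of this part of the pathway were close to unread in both groups. Gapdh, among the most abundant transcripts of most mammalian cells, was listed at 0, 0 and 0 reads in wild type and at 0, 1 and 412 reads in the Stra8-deficient libraries. Gapdh did not pass the filter, and all but 1 of its reads came from the library counted on another gene list. A count of 0, taken to allow up to 3 reads, allows 0.336 to 0.446 CPM in a wild-type library before TMM scaling. Pgam1, the general mutase, had 11, 1 and 31 reads against 8, 5 and 2 reads, and Pklr, the liver and red cell pyruvate kinase, 0, 2 and 3 against 0, 0 and 1. These low values went with sequence shared between genes for some of them. Of the 36-base windows taken every 4 bases along a transcript, 83.3% of those of Gapdh were also found in transcripts of other GENCODE M21 genes, as were 76.1% for Eno1, 68.1% for Pgk1 and 41.8% for Pgam1. For Pgk1 the other gene with most of these windows was Pgk1-rs7, for Pgam1 it was Pgam1-ps2 and for Eno1 it was Eno1b. Pkm2 (45.7%), Pdhb (38.4%), Ldhb (37.7%), Gpi1 (33.4%), Ldha (29.4%), Aldoa (26.6%) and Pklr (23.6%) followed, and the other 23 genes were under 20%. The labels state neither the read length nor how reads that fit several places were counted, so the part of shared sequence in these low counts was not tested, and the levels of Gapdh, Pgk1, Pgam1 and Eno1, with any share that holds them, are uncertain. Among the 23 genes under 20%, 22 were tested, with 14 lower, 5 higher and 3 not called, beside 36.7% lower and 39.0% higher among all genes tested. One coding window of Gapdh (coding bases 409 to 444) was found in transcripts of 117 other genes and is shown for that reason.
Gapdh: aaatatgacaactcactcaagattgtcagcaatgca

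**Figure D3:**
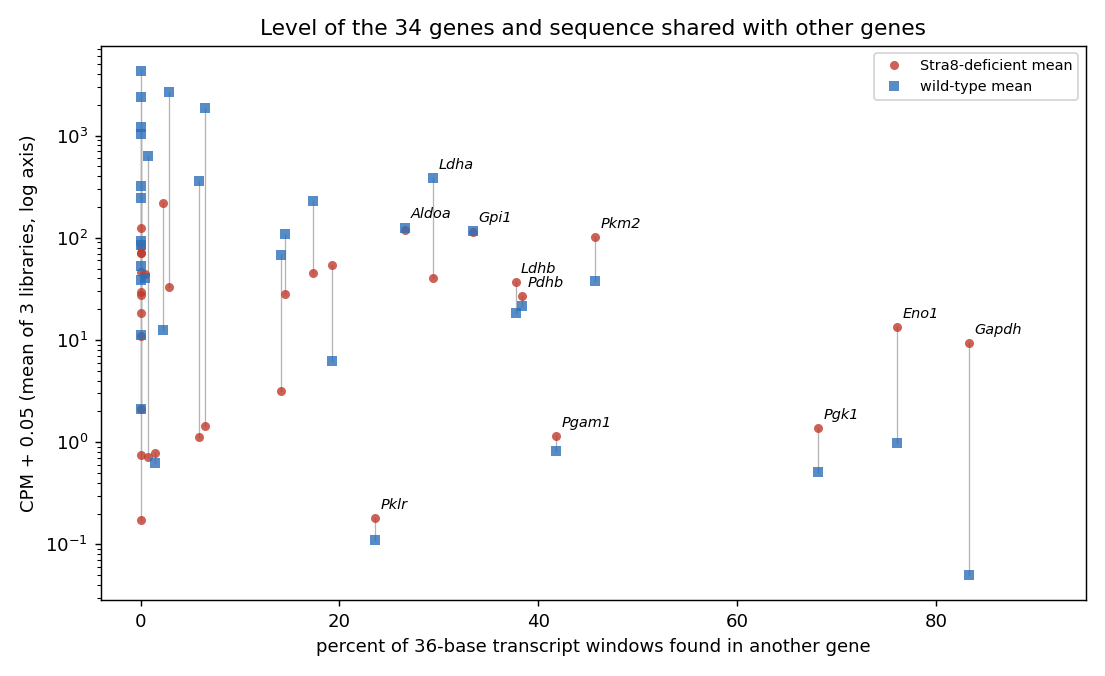
Mean CPM of each of the 34 genes in Stra8-deficient (circles) and wild-type (squares) libraries (vertical log axis, 0.05 added) against the percent of the gene's 36-base transcript windows that occur in another gene. Pgk1, Eno1 and Gapdh, with 68.1% to 83.3% of windows shared, have wild-type means under 1 CPM, while Pkm2, Ldha, Gpi1 and Aldoa have over 20% shared and means above 30 CPM in both groups.

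In the authors' deposited table the log2 ratio of Gapdh was 32.78, with a corrected p of 1.87e-08, which with the counts above rests on the 412 reads of the third library. That table gave Pgk1 a log2 ratio of 1.46 (corrected p 0.0304). For the 29 genes tested here, the authors' deposited table had the same direction and the same call at 0.05.

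Pyruvate kinase, the last step of glycolysis, was read from Pkm2, whose symbol stands for the gene of both M-type enzymes. Its levels were 89.5, 45.8 and 167.8 CPM in Stra8-deficient and 44.7, 40.5 and 27.7 CPM in wild-type libraries. The groups did not overlap, but the second Stra8-deficient library was within 2 CPM of the highest wild-type library. The difference (1.43 ± 0.43; edgeR, adjusted p = 0.0135) was 0.84 without the third Stra8-deficient library, and it was not called without the third wild-type library (1.23) or with the replicate number as a term (1.24); adjusted p ranged from 0.0016 to 0.0668 over the alternatives. The third Stra8-deficient library, highest in Pkm2, was also highest in summed Leydig markers (2799 CPM) and summed macrophage markers (908.9 CPM). It was counted on another gene list, and 45.7% of the windows of Pkm2 occur in other genes. The part of each in the spread was not tested.

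At the lactate dehydrogenase step Ldhc and Ldha were lower and Ldhb higher. Ldhc, the subunit of the germ cell enzyme LDH-C, had 28, 21 and 21 reads in Stra8-deficient libraries and 28003, 31810 and 21555 reads in the wild-type libraries. Per unit length it was the highest of the 34 genes in wild type, at 3119 ± 206.1 RPKM (SD, n = 3), followed by Pgam2 (1244 ± 40.4 RPKM) and Gapdhs (1158 ± 85.1 RPKM), whose ranges overlapped, and then Pgk2 (738.9 ± 100.2 RPKM). In Stra8-deficient testes Ldhc was at 1.51 ± 0.514 RPKM, and the log2 difference was -11.03 ± 0.35 (edgeR, adjusted p = 2.71e-08). Ldha, the form that favours lactate production, was at 38.4, 26.1 and 56.7 CPM against 430.8, 391.7 and 318.1 CPM, lower without overlap (-3.23 ± 0.30; edgeR, adjusted p = 1.04e-05). Ldhb, the heart form that favours pyruvate, rose from 21.7, 18.8 and 14.7 CPM to 32.8, 39.7 and 38.6 CPM (1.01 ± 0.22; edgeR, adjusted p = 0.00215). Of the reads of these 3 genes, which leave out the related Ldhal6b (1081 CPM in wild type), Ldhc held 91.5 ± 0.816% in wild type and 2.73 ± 1.18% in Stra8-deficient testes (SD, n = 3). Ldha held 8.11 ± 0.762% and 49.7 ± 10.2%, and Ldhb 0.392 ± 0.0543% and 47.6 ± 9.73%. Other genes hold 29.4% of the windows of Ldha and 37.7% of those of Ldhb, and the part of this in their shares was not tested. Summed over the 3 genes, the level was 4671 ± 335.2 CPM in wild type and 79.5 ± 15.2 CPM in Stra8-deficient testes, a 58.7-fold difference.

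**Figure D4:**
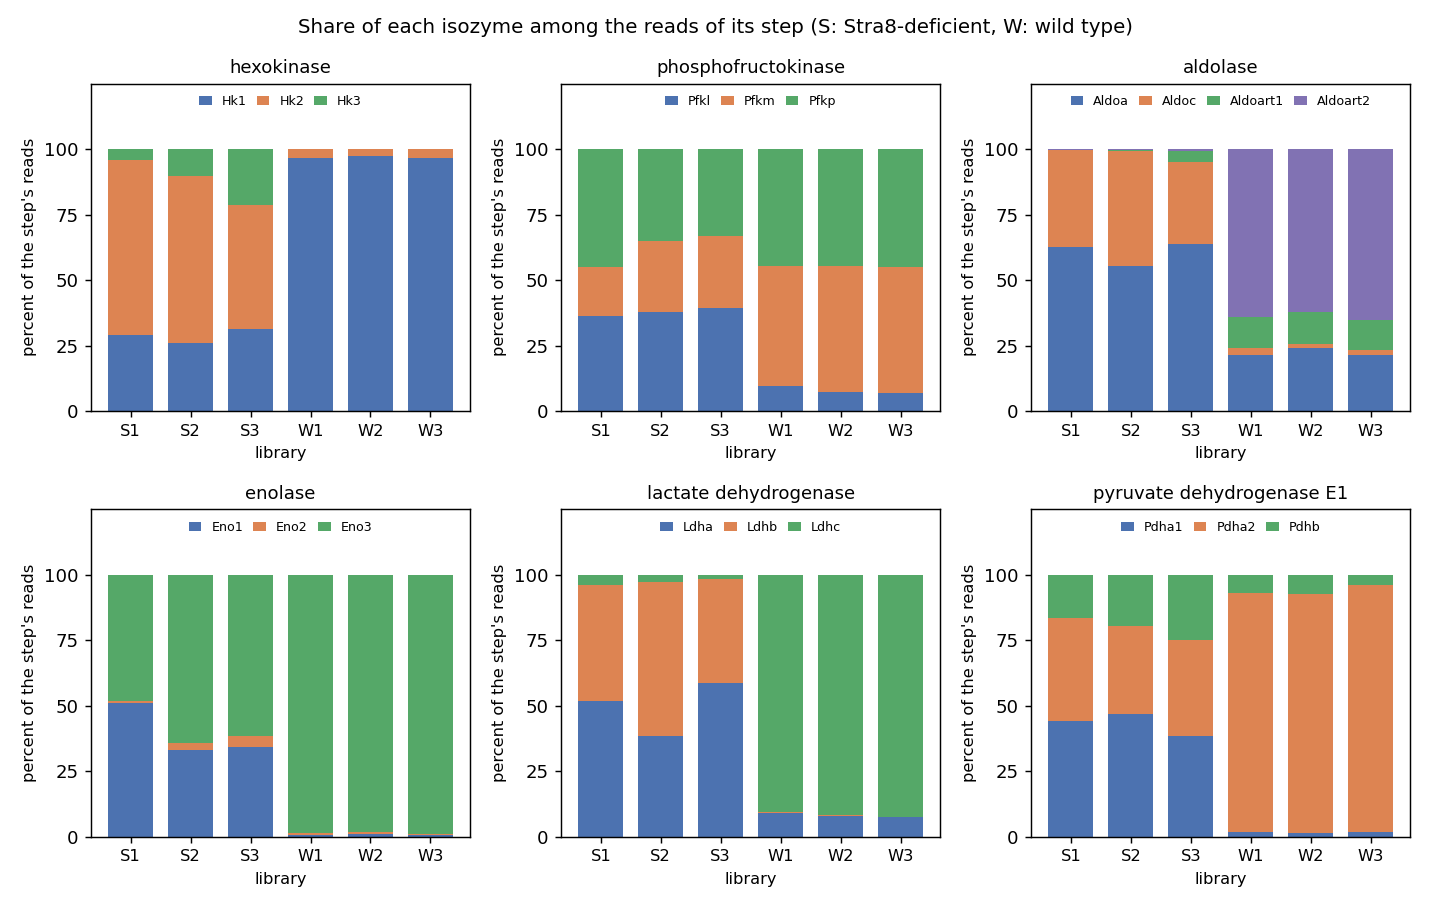
Share of each isozyme among the reads of those of the 34 genes that belong to its step, in each library, for 6 steps with 3 or 4 genes; related genes outside the 34, such as Eno4 and Ldhal6b, are left out (S, Stra8-deficient; W, wild type; each bar sums to 100%). In the wild-type libraries Hk1, Aldoart2, Eno3, Ldhc and Pdha2 take most of the reads plotted for their step, and in the Stra8-deficient libraries Hk2, Aldoa, Aldoc, Ldha, Ldhb and Pdha1 hold larger shares than in wild type.

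The E1 component of pyruvate dehydrogenase, which commits pyruvate to the mitochondrial citric acid cycle, is built from an alpha subunit (Pdha1 or Pdha2) and a beta subunit (Pdhb). Pdha1, on the X chromosome, rose from 6.56, 5.79 and 6.24 CPM to 45.1, 54.0 and 63.3 CPM, with no overlap (3.13 ± 0.22; edgeR, adjusted p = 2.01e-06). Its autosomal retrogene Pdha2, on chromosome 3, was lower at 40.6, 38.3 and 60.5 CPM against 312.7, 327.7 and 315.7 CPM (-2.78 ± 0.22; edgeR, adjusted p = 3.68e-06). Its fitted difference was 6.85-fold, beside 20-fold for Aldoart1, 319.7-fold for Aldoart2 and 9419-fold for Pgk2, and these sizes were not tested against each other. Stra8-deficient libraries still held 404, 402 and 904 of its reads. On the per-length scale Pdha1 (19.0 ± 3.20 RPKM) and Pdha2 (19.8 ± 5.21 RPKM) were within their spread of each other in Stra8-deficient testes, whereas in wild type they were at 2.18 ± 0.136 and 135.5 ± 3.37 RPKM (SD, n = 3). The coding sequences of the 2 genes were 75.6% identical and shared no stretch of 36 bases. Pdhb was at 16.7, 22.7 and 40.9 CPM against 24.4, 26.7 and 12.7 CPM, overlapped and was not called (0.33 ± 0.38; edgeR, adjusted p = 0.447); its value was -0.12 without the third Stra8-deficient library, and it was called higher with library size alone (0.94).

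The genes that were lower differ in structure. All 4 genes whose coding transcripts have 1 exon (Aldoart1, Aldoart2, Pgk2 and Pdha2) were lower, beside 36.7% of all genes tested, although the call of Aldoart1 was lost in 3 of the 13 alternatives. These 4 are among the germ cell forms already given as lower, so the count adds no separate result. Of the other genes that were lower, Ldhc (8 exons), Gapdhs (11 exons), Pgam2 (3 exons), Slc16a7 and Hk1 (up to 9 and 22 exons) have introns. Promoter sequence is shown for the 4 lowest genes and, for contrast, for Slc2a1, the highest, and Pdha1, the X-linked parent of Pdha2, all chosen after their values were seen. It is given as the 100 bases before the RefSeq transcription start (GRCm38.p6), 5′ to 3′ on the gene's strand. An entry was found for 31 of the 34 genes, all but Slc2a3, Slc16a7 and Aldoart1, and the first listed start of each was used. Capitals mark matches on either strand to AACNG (the core bound by Myb factors, which act in meiotic germ cells), TGACG (part of the cAMP response element) or GGGCGG (a GC box). The first 4 genes fell by over 10 on the log2 scale, and the last 2, Slc2a1 and Pdha1, rose.
Ldhc (chr7:46861163-46861262, plus strand): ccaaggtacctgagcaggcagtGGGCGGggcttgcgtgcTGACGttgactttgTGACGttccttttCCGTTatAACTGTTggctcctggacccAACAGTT
Pgk2 (chr17:40208610-40208709, minus strand): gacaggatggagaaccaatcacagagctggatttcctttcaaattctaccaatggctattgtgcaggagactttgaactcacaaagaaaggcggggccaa
Gapdhs (chr7:30743682-30743781, minus strand): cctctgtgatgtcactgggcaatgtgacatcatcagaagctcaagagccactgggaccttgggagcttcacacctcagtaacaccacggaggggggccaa
Pgam2 (chr11:5803797-5803896, minus strand): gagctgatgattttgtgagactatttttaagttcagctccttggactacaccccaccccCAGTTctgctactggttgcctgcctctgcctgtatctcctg
Slc2a1 (chr4:119108645-119108744, plus strand): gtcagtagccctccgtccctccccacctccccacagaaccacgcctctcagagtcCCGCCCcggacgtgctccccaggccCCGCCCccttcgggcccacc
Pdha1 (chrX:160138431-160138530, minus strand): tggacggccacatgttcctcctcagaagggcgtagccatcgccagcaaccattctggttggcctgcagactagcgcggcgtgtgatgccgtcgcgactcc

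Ldhc held all 3 motifs, with 5 matches to AACNG (some overlapping on opposite strands), 2 to TGACG and 1 to GGGCGG. Pgk2 and Gapdhs held none of the 3 in this window, Pgam2 held AACNG alone and Slc2a1 GGGCGG at 2 places. GENCODE M21 starts Ldhc at base 46861203, inside the window shown. By that start, all AACNG matches of Ldhc lie within the gene and not before it. The windows of Pgk2 and Slc2a1 also reach into the gene as GENCODE places it. Over all 31 members, 12 held AACNG, 4 TGACG and 11 GGGCGG, beside 41.0%, 10.7% and 25.2% of the 27025 promoters of the table in windows of the same length. CG pairs numbered 5 in Ldhc, 1 each in Pgk2 and Gapdhs and 0 in Pgam2, 7 in Slc2a1 and 9 in Pdha1, beside a median of 3 over all promoters. Over all members with an entry, genes called lower had 0 to 13 CG pairs and genes called higher 4 to 13, so these ranges overlapped. These are descriptions of the letters only.

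The other genes of glucose, pyruvate and lactate handling were taken from a list of 57 symbols present in the files, of which 49 were tested. Of these 21 were lower, 16 higher and 12 not called, beside 36.7% lower and 39.0% higher among all genes tested. With library size alone 17 were lower and 18 higher, so the order turned. The median log2 difference was -0.38, and 0.25 with library size alone. The lowest by the naming rule were Ldhal6b, a testis gene related to lactate dehydrogenase (from 1081 ± 16.8 to 1.70 ± 0.540 CPM; -9.32 ± 0.30; edgeR, adjusted p = 2.71e-08; all its windows also occur in Gm29050), Fbp1, a gluconeogenic fructose bisphosphatase (-7.56 ± 1.22), the fructose transporter gene Slc2a5 (-6.71 ± 0.31) and Gpd2, the mitochondrial glycerol phosphate dehydrogenase (-6.31 ± 0.26). Fbp1 was read at 1.51, 0 and 10.3 CPM in the Stra8-deficient libraries against 785.0 to 791.8 CPM in wild type. The highest were the phosphoglucomutase gene Pgm2 (from 10.9 ± 1.44 to 175.3 ± 3.79 CPM; 4.01 ± 0.19; edgeR, adjusted p = 1.4e-07), transaldolase Taldo1 (3.71 ± 0.18), the oxygen-sensing prolyl hydroxylase gene Egln3 (3.40 ± 0.28) and the X-linked transketolase-like gene Tktl1 (3.29 ± 0.20).

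Within that list stand genes of the pentose phosphate pathway, which branches from glycolysis to supply NADPH and ribose. Of 8 such genes looked up, 5 were higher, 2 lower and 1 not called, beside 39.0% higher and 36.7% lower among all genes tested. G6pdx, the X-linked first enzyme, was higher (1.69 ± 0.22) and its autosomal germ cell copy G6pd2 lower (-2.77 ± 0.25). Pgd (2.32 ± 0.20), Taldo1, Tkt (0.80 ± 0.28) and Tktl1 were higher, Tktl2 lower (-1.19 ± 0.21), and Pgls not called (0.09 ± 0.28). Although Tkt was called (edgeR, adjusted p = 0.0271), its groups overlapped. The genes of this paragraph were singled out after their values were seen. The kinases that switch pyruvate dehydrogenase off were split, with Pdk1 higher (3.18 ± 0.29), Pdk3 higher (0.53 ± 0.16) and Pdk2 lower (-4.35 ± 0.27), while Pdk4 was not called (-0.03 ± 0.73). The phosphatase genes Pdp1 (0.94 ± 0.16) and Pdp2 (3.27 ± 0.23), which switch it on, were both higher. The related gene Pdpr was lower (-0.56 ± 0.19), with no overlap. Hif1a, the oxygen-regulated transcription factor known to act on many glycolysis genes, was higher at 1.39 ± 0.23. Its level was 74.6, 125.2 and 77.9 CPM against 36.1, 34.6 and 35.2 CPM, with no overlap. Bsg, the chaperone that brings MCT1 and MCT4 to the membrane, was lower (-0.93 ± 0.19), with 375.6, 300.5 and 413.4 CPM against 663.7, 651.0 and 758.1 CPM.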

How the data were processed

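Reads per gene symbol were deposited as raw counts for 3 Stra8-deficient and 3 wild-type testes. TopHat, HTSeq, edgeR and the mm9 build are named in the submitters' processing notes; no source used here gives versions, settings, strand handling or the annotation. A second deposited file, the authors' comparison, holds log2 ratios and p-values. HTSeq's counters (20.9% to 34.5% of reads) were left out. The 21786 symbols common to all files were used. Low counts were filtered with filterByExpr (15018 genes kept), libraries scaled by TMM (factors 0.796 to 1.27) and groups compared with edgeR 4.0.16 in R 4.3.3 (glmQLFit, robust), adjusted by Benjamini-Hochberg over all genes tested. SE is the log2 difference over the square root of F. The test was also run on simulated data in which few genes changed and both groups had the same spread. These data differ in both respects, so that run does not check the test for them. Replicates differed by more than sampling noise.

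Windows, exon lengths, coding sequences and gene structure came from GENCODE M21 (GRCm38), matched to 19724 symbols by name and 1746 by synonym; all 34 genes matched. RPKM divides CPM by the kilobases of all exons of a gene. No coordinates of the authors' build were used. Counting intervals are 95% exact and cover counting error only. Depth sets the floor of 3 counts, 0.241 to 0.446 CPM. The genes, gene lists and tests were chosen with earlier results of these data known. Named were all 34 genes, the 4 highest and 4 lowest called genes of the other pathway list (average log2 CPM 0 or above), and genes marked as chosen after their values were seen. Alternatives were RLE, upper-quartile and library-size scaling, no filter, no robust estimation, DESeq2 1.42.0, the replicate number as a block, and each library left out.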

Additional observations from a re-analysis of the deposited data

How the results depend on the processing

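Of the 29 tested genes, 21 kept their direction and their call under all 13 alternatives (3 scalings, no low-count filter, no robust estimation, DESeq2, the replicate block and each of the 6 libraries left out). The changes in the other 8 were as follows. Slc16a3 turned to 0.23 with library size alone and was called at -1.03 without the first Stra8-deficient library. Hk2 turned to 0.37 with library size alone, 0.02 under upper-quartile scaling and 0.05 without the third Stra8-deficient library, and was called at -0.96 without the first. Gpi1 turned to 0.57 with library size alone, 0.23 under upper-quartile scaling, 0.21 without the second Stra8-deficient and 0.02 without the first wild-type library (-0.40 to 0.21 over the libraries left out). Pfkl turned to -0.00018 with RLE size factors, -0.00028 in DESeq2 and -0.17 without the first Stra8-deficient library (-0.17 to 0.25 over the libraries left out); with library size alone it was called at 0.73. Aldoa turned to 0.53 with library size alone, where it was called (adjusted p = 0.0315 in edgeR), 0.18 under upper-quartile scaling and 0.02 without the second Stra8-deficient library (-0.24 to 0.02 over the libraries left out). Pdhb turned to -0.12 without the third Stra8-deficient library (-0.12 to 0.54) and was called at 0.94 with library size alone. None of these 6 was called in the first place. The calls of Aldoart1 and Pkm2 were lost as given with their values, and the cause was not tested. The numbers of genes called stayed at 7 to 11 higher and 14 to 17 lower. The split over all genes tested was 5860 higher and 5519 lower, and 7550 and 4326 with library size alone, where the median of all genes moved from 0.11 to 0.73. The replicate numbers are shared by both groups, but same-numbered libraries did not deviate together (correlations 0.06, 0.08 and -0.04). With the replicate block, 7 of the genes were called higher and 14 lower, and Aldoart1 (-5.52) and Pkm2 (1.24) lost their calls. Gapdh, Pgk1, Pgam1, Eno2 and Pklr did not pass the low-count filter, because too few libraries reached its level. Gapdh had 412 reads in the third Stra8-deficient library and at most 1 in any other. Why these counts were low was not tested. Without that filter all 34 were tested, 8 were called higher and 15 lower, and their median difference was -0.153.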
